A study of Mus musculus with 12 samples.

Results

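Fhit, Wwox, Lrp1b, Macrod2, Immp2l, Ctnna3 and Csmd1 are very long genes whose human counterparts host common fragile sites. The direction of replication forks along these 7 genes was measured by OK-seq in mouse embryonic stem cells (ESCs). The genes were taken as a list of names from the 21755 protein-coding genes of the GENCODE M21 annotation on the autosomes and chromosome X, by name and with no threshold on a measured value. For each gene, every bin of 1 kb from its start to its end and in 500 kb on either side was taken in all 6 tracks, apart from those left out in processing. The gene bodies held 10731 bins, and bodies and flanks together 17731. The 230 protein-coding genes of at least 500 kb, which include the 7, are called long genes here and serve as their background. Among the long genes Lrp1b (2058 kb) ranked 7 by length, Macrod2 (1998 kb) 8, Csmd1 (1643 kb) 10, Fhit (1612 kb) 12 and Ctnna3 (1574 kb) 13. Immp2l (931 kb) ranked 69 and Wwox (913 kb) 74, so these were shorter than the other members but longer than the median long gene (730 kb).

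The study asked how KMT2C and KMT2D, which place H3K4 monomethylation at enhancers, shape replication as naive ESCs pass into epiblast-like cells (EpiLCs), a formative state reached after LIF and 2i are withdrawn. Naive ESCs and EpiLCs of 3 genotypes were assayed, with 2 biological replicates each, 12 samples in all. The control was KMT2C KO, so a wild type is not among the groups and catalytically active KMT2C was missing from every group, being knocked out in the control and in KMT2C/D dKO and catalytically dead in KMT2C/D dCD. In KMT2C/D dKO cells (dKO below) KMT2D was lost as well, by 4-hydroxytamoxifen acting on Cre ER in a line of mixed C57BL/6 and 129 background that carries KMT2C KO and a conditional KMT2D allele. KMT2C/D dCD cells (dCD below), with both enzymes catalytically dead, were made in R1 cells of a 129 background, while the line of the control is not named separately in the sources used here. Any difference of line between KMT2C/D dCD and control cannot be told apart from genotype. The deposited tracks add up both replicates of a condition. There is thus 1 value per gene and condition and no error between replicates, no test was run, and every comparison is between libraries and not between conditions.

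A replication fork copies one template strand without breaks and the other as short Okazaki fragments, so the strand to which a fragment maps tells which way its fork moved. Where an origin fires, forks leave in both directions, and where oncoming forks meet, replication terminates. Common fragile sites are regions that break or fail to condense under mild replication stress. They often lie in very long genes that replicate late, are poor in origins and have to be crossed by forks that travel far, and deletions within them are frequent in tumours and in stressed cultured cells. The sources used here name no treatment that stresses replication, and breakage was not measured.

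Fork direction is given as the share of reads from forks moving with transcription, called fork share below. It is the Crick percentage, C/(W+C), for genes on the plus strand and the Watson percentage for genes on the minus strand, and 50% means equal numbers of forks each way. Each gene was cut into 10 equal segments numbered from its 5′ end. The trend of a gene is the fork share in its last 3 segments minus that in its first 3, in percentage points. A trend of -10 or lower is called converging and a trend of 10 or higher diverging. The terms name only a fall or a rise of fork share along the gene. The majority of forks can move the same way at both ends, as in Immp2l in the naive control. There fork share was 74.3% in the first 3 and 59.8% in the last 3 segments. Intervals are 95% intervals from counting alone (Wilson for shares, Newcombe for differences). Reads carry no molecular identifiers and are not independent molecules, so these intervals cover counting error only.

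The naive libraries held 4405360 reads in the control, 3934301 in dKO and 3652593 in dCD, and the EpiLC libraries 11398128, 12950733 and 13591646. Over 1 member this came to between 1293 reads (Immp2l, naive dCD) and 11145 reads (Macrod2, EpiLC dCD). A single segment held 97 to 1207 reads, and the median interval of its share reached 6.09 to 6.74 points to either side in naive libraries and 3.41 to 3.84 in EpiLC libraries. In every library the Crick share was higher in bins with more T than A on the reference strand, with slopes from 1.03 (EpiLC control) to 1.53 (naive dCD) in Crick fraction per unit of T excess. The coding strand of all 7 genes held more T than A, by 1.24% (Csmd1) to 3.23% (Immp2l) of its bases, as it did in 221 of the 230 long genes. Several values are also given without the part that follows this base content. The spread of fork direction along the genome, as an SD over 50 kb bins without counting variance, was 12.6, 13.3 and 16.5 points in the naive control, dKO and dCD and 9.73, 10.6 and 12.3 in EpiLCs, and is called the amplitude.

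Promoters are shown for the 4 of 7 members matched in the RefSeq promoter table (GRCm38.p6; not Wwox, Lrp1b and Csmd1), as the 250 bases before the start in that table, because active CpG-rich promoters often lie next to origins. They are written 5′ to 3′ on the strand of the gene, with CG dinucleotides in capitals. Fhit is at chr14:11162036-11162285 (minus strand), Macrod2 at chr2:140395180-140395429, Immp2l at chr12:41023840-41024089 and Ctnna3 at chr10:63429848-63430097 (plus strand).
Fhit: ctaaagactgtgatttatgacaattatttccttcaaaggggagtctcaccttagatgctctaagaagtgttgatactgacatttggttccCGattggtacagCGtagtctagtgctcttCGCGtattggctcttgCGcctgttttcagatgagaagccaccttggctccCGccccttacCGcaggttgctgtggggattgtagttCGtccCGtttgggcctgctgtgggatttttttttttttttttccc
Macrod2: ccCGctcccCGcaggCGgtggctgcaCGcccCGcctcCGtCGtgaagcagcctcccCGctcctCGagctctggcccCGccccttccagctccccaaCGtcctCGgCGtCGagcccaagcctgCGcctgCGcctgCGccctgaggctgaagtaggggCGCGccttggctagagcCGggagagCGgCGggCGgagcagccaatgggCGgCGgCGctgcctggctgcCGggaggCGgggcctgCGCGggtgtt
Immp2l: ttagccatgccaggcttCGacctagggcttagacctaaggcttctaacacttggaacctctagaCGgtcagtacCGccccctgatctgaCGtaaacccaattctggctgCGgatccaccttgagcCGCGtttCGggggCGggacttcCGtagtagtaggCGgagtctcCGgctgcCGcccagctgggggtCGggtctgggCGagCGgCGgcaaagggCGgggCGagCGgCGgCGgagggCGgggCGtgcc
Ctnna3: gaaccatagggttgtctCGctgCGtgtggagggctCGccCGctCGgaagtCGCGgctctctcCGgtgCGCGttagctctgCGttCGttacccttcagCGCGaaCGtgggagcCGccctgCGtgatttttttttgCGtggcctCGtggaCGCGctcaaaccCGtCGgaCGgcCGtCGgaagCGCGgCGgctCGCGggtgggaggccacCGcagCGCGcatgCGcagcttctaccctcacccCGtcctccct
The start in that table is the one used for the gene elsewhere here except in Macrod2, where it lies further in, so that 121 of the 250 bases fall inside the gene as used below. The window of Ctnna3 held 36 CG dinucleotides, that of Macrod2 30, that of Immp2l 24 and that of Fhit 9. Over the 27025 genes of the table the median was 6, and 38.2% of windows held at least 10. The 3 CpG-rich windows thus passed the limit of 10, and that of Fhit lay above the median but below this limit. How many genes hold 24 or more was not counted.

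Fork share was lower in the 3′ than in the 5′ part of most of these genes. With a trend of -10 or lower, 5 of the 7 were converging in the naive control, 4 in naive dKO and 5 in naive dCD, beside 60.0%, 65.7% and 73.0% of long genes. In EpiLCs the counts were 4, 3 and 3 of 7, beside 56.1%, 60.4% and 61.3%. These shares were near the background or below it. A diverging member was seen in naive dKO, naive dCD and EpiLC dKO, 1 gene each time and always Wwox, beside 2.61%, 4.35% and 1.30% of long genes. In the other tracks 0 members diverged, beside 2.61% (naive control), 2.17% (EpiLC control) and 3.04% (EpiLC dCD). The median trend of the 7 was -14.2 in naive and -10.4 in EpiLC control cells, against -13.7 and -11.2 over all long genes. In EpiLC dCD the medians were -5.56 and -14.9. The 7 genes thus fall into 3 that converge in every track (Macrod2, Ctnna3, Csmd1), 2 that do so in some (Fhit, Immp2l) and 2 that never do (Lrp1b, Wwox), beside 41.3%, 41.7% and 17.0% of long genes. Taken as last 5 minus first 5 segments, Ctnna3 was still at -11.1 or lower in all 6 tracks, whereas Macrod2 lay between -6.09 and -12.7 and Csmd1 between -6.64 and -17.9. By that measure the converging members numbered 3, 4 and 5 in naive ESCs, beside 49.6%, 56.1% and 64.8% of long genes, and 1, 2 and 1 in EpiLCs, beside 40.9%, 44.3% and 53.5%. With the T minus A part removed they numbered 4, 3 and 5 in naive ESCs, beside 50.9%, 56.5% and 65.7%, and 4, 3 and 2 in EpiLCs, beside 46.5%, 48.3% and 57.8%. In EpiLCs both counts lay below the background as shares of 7, except that without the T minus A part in the control.

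**Figure D1:**
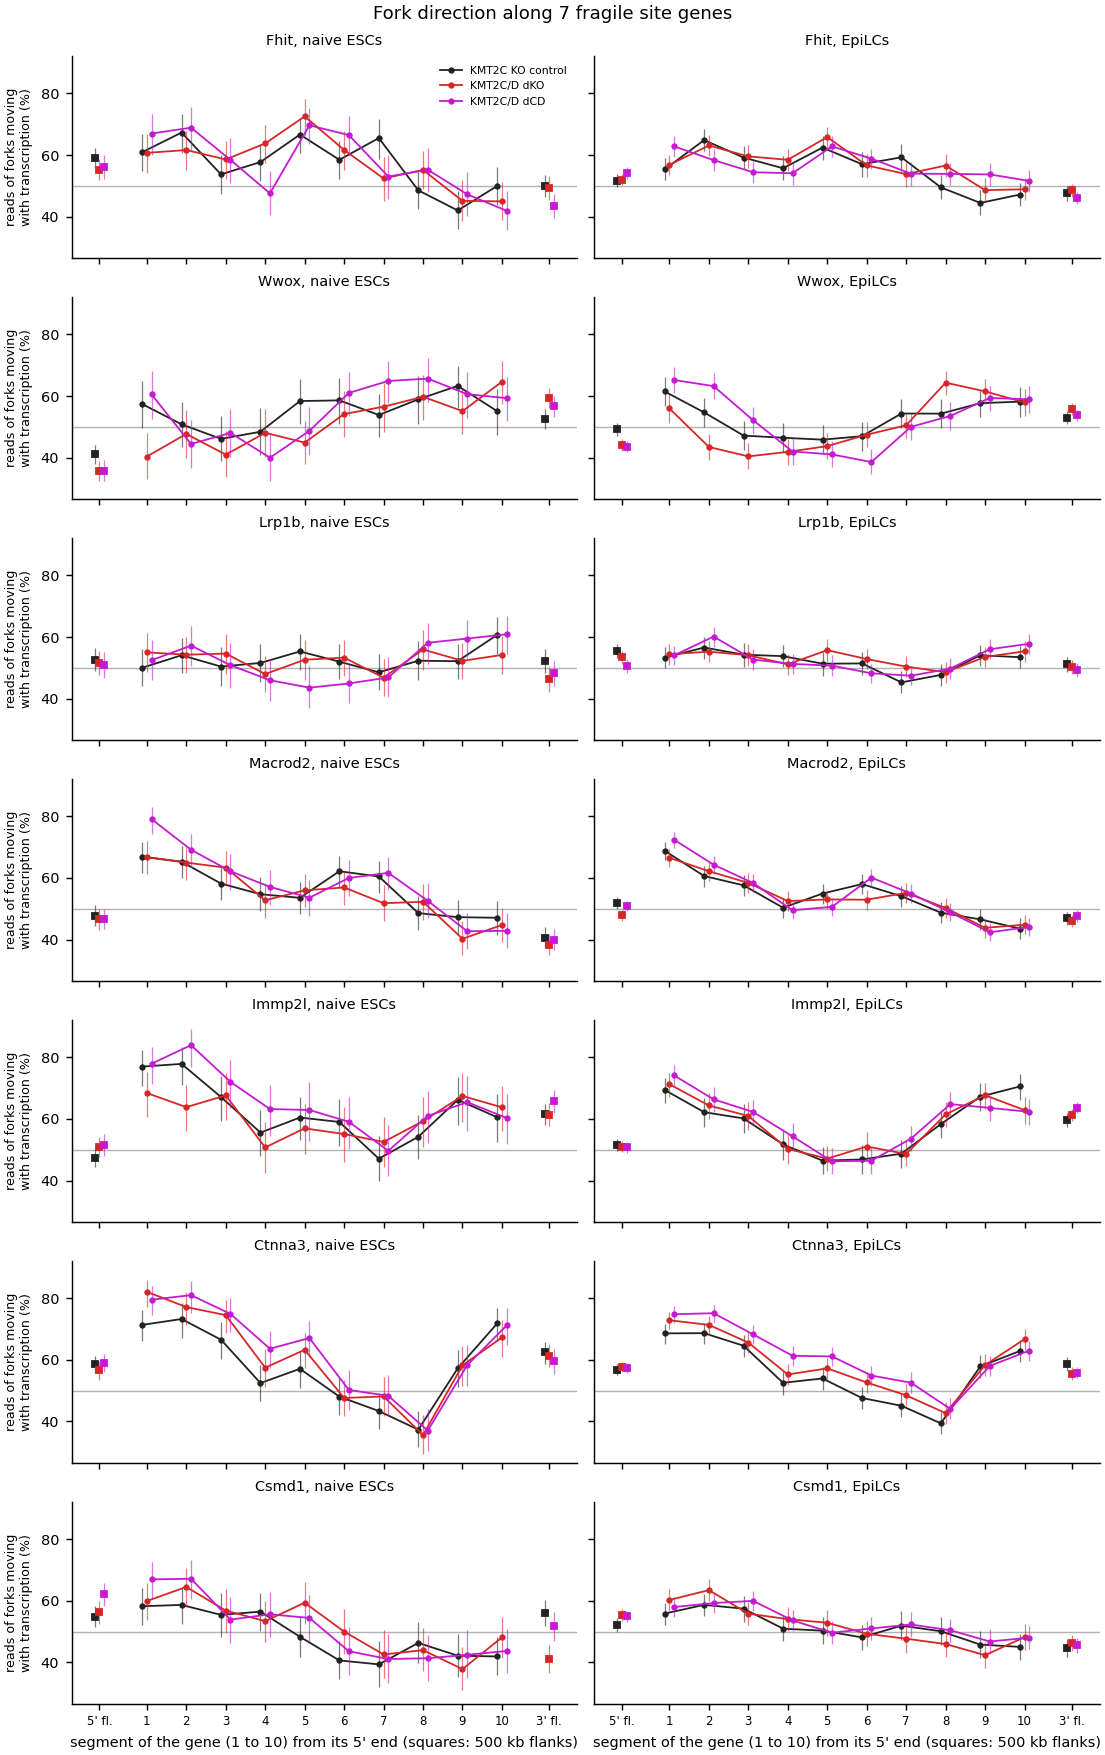
Fork share (percent of reads from forks moving with transcription) in the 10 segments of each gene from its 5′ end (circles) and in its 500 kb flanks (squares), with 95% counting intervals, for naive ESCs on the left and EpiLCs on the right and 3 genotypes by colour. Macrod2 and Csmd1 slope down in all tracks, Ctnna3 slopes down to segment 8 and then turns up, Immp2l and Wwox dip in the middle in EpiLCs, and Lrp1b ranges from 43.6 to 60.9%.

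Macrod2 (chr2:140395309-142392966, plus strand, mm10) encodes a hydrolase that removes ADP-ribose from proteins. Its trend in naive ESCs was -15.8 (-20.2 to -11.3) in the control, -19.6 (-24.0 to -15.0) in dKO and -24.6 in dCD. In EpiLCs it was -16.3 (-19.0 to -13.5) in the control, -16.1 (-18.6 to -13.5) in dKO and -20.2 (-22.6 to -17.9) in dCD. All 6 values were converging, with intervals that did not reach 0. Fork share at the 5′ end, in segment 1, was 66.9% in the control, 66.8% in dKO and 79.1% in dCD in naive ESCs, and 68.8% in the control, 66.5% in dKO and 72.4% in dCD in EpiLCs. By segment 10 it had come down to 42.9 to 47.1% over the 6 tracks. Forks moving with transcription were thus the majority at the 5′ end and the minority at the 3′ end. The descent was not even, with 52.9 to 62.2% in segment 6 after 49.5 to 57.1% in segment 4. The step in fork share at the gene start, comparing 100 kb on either side, was -1.04 in the control, 3.56 in dKO and 13.1 in dCD in naive ESCs. In EpiLCs the start step was 0.0885 in the control, 7.47 in dKO and 4.18 in dCD. Except in naive dCD these steps were under 10 points, and fork share was already 61.6 to 70.5% in the 100 kb before the gene. Flrt3, a membrane protein gene read from the minus strand inside Macrod2, showed steps of -7.28 to 3.05 points at its start, read in the direction of Macrod2, with every interval including 0.

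Ctnna3 (chr10:63430098-65003667, plus strand) encodes alpha-T-catenin, which links cadherins to actin in heart and testis. The trend in naive ESCs was -14.7 (-19.4 to -9.93) in the control, -24.4 (-29.1 to -19.5) in dKO and -22.4 (-27.2 to -17.4) in dCD. EpiLC tracks gave -14.3 (-17.2 to -11.4) in the control, -14.4 (-17.1 to -11.6) in dKO and -18.0 (-20.5 to -15.4) in dCD. Every value was converging, yet the profile was not a plain slope. In segment 1 fork share was 71.3% in the control, 82.1% in dKO and 79.5% in dCD in naive ESCs and 68.6% in the control, 72.8% in dKO and 74.8% in dCD in EpiLCs. Segment 8 was the low point, at 37.3% in the control, 35.6% in dKO and 37.0% in dCD in naive ESCs and 39.4% in the control, 42.7% in dKO and 44.1% in dCD in EpiLCs. This was the single segment of the 70 in these genes whose interval lay below 50% in all 6 tracks. Fork share then turned up to 57.3 to 58.3% in segment 9 and 62.8 to 71.8% in segment 10. At the gene start the step was 16.7 in the control, 24.9 in dKO and 24.7 in dCD in naive ESCs. It was 10.7 in the control, 18.5 in dKO and 11.7 in dCD in EpiLCs, so each of the 6 steps passed 10 points at this scale. At 25 kb on either side, a window added after the data were seen, it was -17.3 (-32.5 to -1.57) in the control, 20.9 (3.52 to 35.0) in dKO and -0.577 (-18.2 to 15.2) in dCD in naive ESCs. In EpiLCs it was -2.31 (-13.5 to 8.72) in the control, 0.504 (-10.1 to 10.7) in dKO and -2.16 (-12.6 to 8.11) in dCD, so naive dKO alone showed a rise. Fork share was already 68.3 to 82.1% in the 25 kb before the gene. Both other protein-coding genes inside Ctnna3 lie on the minus strand. Lrrtm3, a synaptic adhesion gene, had a step in the direction of Ctnna3 at its own start of 14.3 in the control, 20.5 in dKO and 21.8 in dCD in naive ESCs. In EpiLCs that step was 6.94 in the control, 13.2 in dKO and 10.4 in dCD, all intervals lying above 0. Gm10118, a predicted gene just downstream of Lrrtm3, had steps that went down in the same direction of reading, -22.7 (-32.1 to -12.5) in the control, -8.97 (-19.5 to 1.72) in dKO and -6.10 (-16.1 to 4.04) in dCD in naive ESCs. They were -6.26 (-12.9 to 0.483) in the control, -11.2 (-17.1 to -5.22) in dKO and -8.20 (-13.5 to -2.80) in dCD in EpiLCs, negative in all 6 tracks, with an interval below 0 in 3.

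Csmd1 (chr8:15892537-17535586, minus strand) encodes a large membrane protein with CUB and sushi domains that restrains complement. Naive trends were -14.2 (-19.4 to -8.88) in the control, -17.0 (-22.4 to -11.5) in dKO and -20.9 (-26.5 to -15.0) in dCD. EpiLC trends were -10.4 (-13.8 to -6.97) in the control, -14.3 (-17.5 to -11.1) in dKO and -10.6 (-13.4 to -7.64) in dCD. All lay at -10 or below, the EpiLC control and dCD near the limit. In EpiLC dCD the trend was -9.67 without the T minus A part, -8.38 after division by the relative amplitude and -9.23 after thinning to the smallest library, and so no longer converging. Fork share in segment 2 was 58.7 to 67.1% in naive tracks and 58.7 to 63.5% in EpiLC tracks, and in segment 9 37.8 to 42.5% and 42.3 to 46.8%. The naive control passed below 50% from segment 5 on, whereas the EpiLC control stayed within 48.1 to 51.9% in segments 4 to 8. Start steps were 11.4 in the control, 14.1 in dKO and 11.8 in dCD in naive ESCs and 7.48 in the control, 9.54 in dKO and 7.92 in dCD in EpiLCs, all intervals being above 0 at 100 kb. At 25 kb they were 2.44 in the control, 15.8 in dKO and 6.22 in dCD in naive ESCs. In EpiLCs they were 1.08 in the control, 11.9 in dKO and 8.73 in dCD, and at 25 kb every interval included 0.

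Fhit (chr14:9550092-11162035, minus strand) encodes a hydrolase of diadenosine triphosphate that is often deleted in tumours. In naive ESCs its trend was -13.4 (-18.5 to -8.29) in the control, -11.6 (-16.8 to -6.37) in dKO and -17.0 (-22.6 to -11.3) in dCD. In EpiLCs the control had -12.6 (-15.6 to -9.46), dKO -8.29 (-11.2 to -5.35) and dCD -5.56 (-8.45 to -2.66), so both mutants fell short of -10 there while no interval reached 0. Without the T minus A part the trend was -9.96 in the naive control and -8.20 in naive dKO, no longer converging, and after thinning it was -7.06 in the EpiLC control. Fork share was high in the middle of the gene, 66.7 to 72.5% in segment 5 of the naive tracks and 62.4 to 65.9% in EpiLCs. At the 3′ end, in segment 9, naive tracks had 42.0 to 47.3% and EpiLC tracks 44.5 to 53.7%. The 100 kb step at the gene start was small, from 2.61 to 11.8 points over the 6 tracks, with an interval above 0 in both dCD tracks only. At 25 kb it was larger in each track, at 12.2 in the control, 12.4 in dKO and 19.0 in dCD in naive ESCs and 11.3 in the control, 8.57 in dKO and 7.14 in dCD in EpiLCs, and passed 10 in 4 of 6 tracks, with every interval including 0.

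Immp2l (chr12:41024090-41955588, plus strand) encodes a catalytic subunit of the peptidase of the inner mitochondrial membrane, and differed between states in the control and dCD. The naive trends were -14.5 (-20.2 to -8.68) in the control, -3.19 (-9.47 to 3.11) in dKO and -16.1 (-22.3 to -9.76) in dCD. In EpiLCs they were 0.833 (-2.78 to 4.45) in the control, -1.91 (-5.35 to 1.54) in dKO and -4.23 (-7.45 to -0.998) in dCD, none at -10. Fork share was high in its 5′ part, 68.4 to 77.9% in segment 1 of naive tracks and 69.4 to 74.1% in EpiLCs. In EpiLCs the profile was a trough, with 46.2 to 47.1% in segment 5 and 63.6 to 67.7% in segment 9. Naive tracks had 56.9 to 62.9% in segment 5 and reached their low in segment 7 in the control and dCD. Start steps at 100 kb were large, at 28.7 in the control, 22.9 in dKO and 27.7 in dCD in naive ESCs and 14.7 in the control, 17.6 in dKO and 16.1 in dCD in EpiLCs. At 25 kb they were 13.1 in the control, 7.92 in dKO and 7.09 in dCD in naive ESCs and 5.02 in the control, 9.07 in dKO and 5.90 in dCD in EpiLCs, each interval including 0. Lrrn3, a leucine-rich repeat gene that lies on the minus strand near the middle of Immp2l, had steps of -3.77 to 2.49 points, each interval including 0.

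Wwox (chr8:114439655-115352708, plus strand), the gene of a WW domain oxidoreductase that acts as a tumour suppressor, ran the other way. Its trend was 8.13 (2.03 to 14.1) in the control, 17.0 (10.8 to 23.0) in dKO and 10.9 (4.65 to 17.1) in dCD in naive ESCs. EpiLCs had 2.21 (-1.63 to 6.04) in the control, 15.3 (11.8 to 18.8) in dKO and -2.77 (-6.27 to 0.741) in dCD. Of the 230 long genes, 228 had a lower trend in naive dKO and 229 in EpiLC dKO, against 222 and 209 in the controls and 221 and 193 in naive and EpiLC dCD. Divided by the relative amplitude the trend of naive dCD was 8.36, no longer diverging. Fork share in the 500 kb before the gene was 41.1% in the control, 35.7% in dKO and 35.8% in dCD in naive ESCs. Forks against transcription were thus the majority there, and in EpiLCs less so, with 49.2% in the control, 44.0% in dKO and 43.6% in dCD. A step up at the gene start, of 15.3 in the control, 11.3 in dKO and 23.9 in dCD in naive ESCs and 14.9 in the control, 18.0 in dKO and 19.3 in dCD in EpiLCs, was present in all 6 tracks at 100 kb. At 25 kb it was 1.65 (-18.7 to 21.5) in the control, 7.29 (-14.3 to 27.1) in dKO and 22.5 (0.979 to 41.3) in dCD in naive ESCs and 22.2 (9.96 to 33.4) in the control, 11.8 (-0.405 to 23.6) in dKO and 12.8 (0.995 to 24.2) in dCD in EpiLCs, above 10 in 4 of 6 tracks. After it EpiLC fork share went down to 45.9% in segment 5 of the control, 40.4% in segment 3 of dKO and 38.6% in segment 6 of dCD, and ended at 57.9 to 59.0%.

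Lrp1b (chr2:40595246-42653624, minus strand), which encodes a giant receptor of the LDL receptor family, was the longest member and had the narrowest range of segment values. Trends were 3.33 (-1.57 to 8.20) in the control, -0.619 (-5.62 to 4.39) in dKO and 5.92 (0.518 to 11.3) in dCD in naive ESCs. They were -2.99 (-5.92 to -0.0440) in the control, -2.04 (-4.80 to 0.731) in dKO and -0.940 (-3.62 to 1.74) in dCD in EpiLCs. Over the 6 tracks its 10 segments ranged from 43.6 to 60.9%, and no segment was on the same side of 50% with its interval in all 6. Start steps lay between -8.92 and 5.75 points with every interval including 0. At the gene end the 100 kb step was -19.4 (-31.1 to -6.78) in the control, -3.66 (-15.8 to 8.59) in dKO and -14.7 (-27.3 to -1.30) in dCD in naive ESCs. In EpiLCs it was -11.0 (-18.1 to -3.66) in the control, -6.07 (-13.0 to 0.981) in dKO and -11.6 (-18.1 to -4.99) in dCD. Lrp1b also held the most AT-rich sequence of the 7 (63.6% A and T, against 54.2% in Wwox and a median of 60.2% over long genes).

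**Figure D2:**
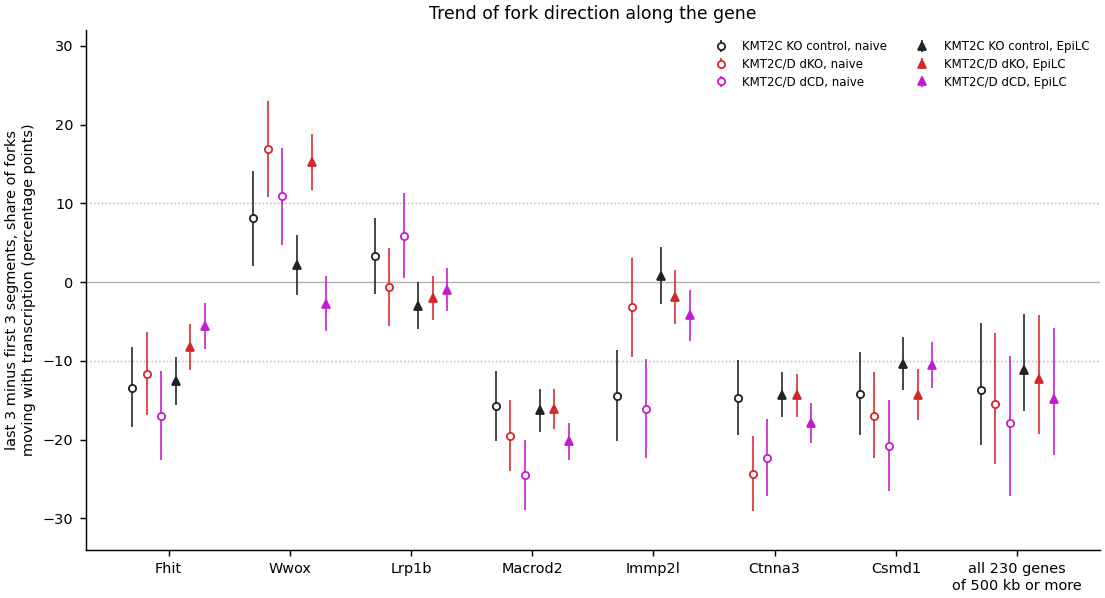
Trend of fork share along each gene (last 3 minus first 3 segments, percentage points) in the 6 tracks, with 95% counting intervals, beside the median and the interquartile range of all 230 long genes on the right. Dotted lines mark -10 and 10. Macrod2, Ctnna3 and Csmd1 lie below -10 in every track, and Wwox lies above 10 in naive dKO, naive dCD and EpiLC dKO.

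Steps of at least 10 points at the gene start, with 100 kb on either side, were counted for the 7 together. They numbered 4, 4 and 6 in the naive control, dKO and dCD, beside 40.9%, 40.4% and 38.3% of long genes, and 3 in each EpiLC track, beside 31.7%, 35.2% and 35.7%. Immp2l, Ctnna3 and Wwox made up the 3 in EpiLCs and were among the others in every naive track. With 25 kb on either side they numbered 2, 4 and 2 in naive ESCs, beside 40.0%, 45.7% and 47.8%, and 2, 3 and 1 in EpiLCs, beside 30.0%, 30.4% and 31.7%. By gene, the tracks past 10 points at 25 kb numbered 4 for Fhit, 4 for Wwox, 2 for Csmd1 and 1 each for Macrod2, Immp2l, Ctnna3 and Lrp1b. Of the promoters printed above, those of Immp2l and Ctnna3 hold many CG dinucleotides and their genes passed 10 in all 6 tracks at 100 kb, while Macrod2, whose window is as rich, and Fhit, whose window holds fewer, passed it in naive dCD alone. At 25 kb this order turned around, with Fhit past 10 in more tracks than the 3 CpG-rich genes, so no relation with the promoter is read from these steps.

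Most reads over these genes came from forks moving with transcription. Fork share over the whole gene was above 50% with its counting interval in 6, 6 and 6 members in the naive control, dKO and dCD, beside 50.4%, 46.1% and 49.1% of long genes, and in 7, 6 and 7 in EpiLCs, beside 52.6%, 54.8% and 56.1%. Immp2l had 62.6% in the control, 60.8% in dKO and 66.1% in dCD in naive ESCs and 58.3% in the control, 58.5% in dKO and 59.8% in dCD in EpiLCs. It was the highest of the 7 in both controls and in naive dCD, and Ctnna3 was the highest in the other 3 tracks. Fhit lay between 55.5 and 57.6% and Macrod2 between 54.0 and 58.5%. Wwox (50.7 to 55.8%), Lrp1b (52.1 to 53.1%) and Csmd1 (49.2 to 53.4%) were the lowest. Part of this share moved with base content. Without the T minus A part, the members above 50% with their interval numbered 4, 4 and 4 in naive ESCs, beside 31.3%, 30.4% and 33.5% of long genes, and 4, 6 and 5 in EpiLCs, beside 32.6%, 35.7% and 41.7%, with 1 member below it in the naive control (Csmd1, 47.9%) and 1 in EpiLC dKO (Wwox, 48.0%). Immp2l then had 56.7% in the naive and 54.5% in the EpiLC control, and Lrp1b 49.9% and 50.3%. In naive dCD Ctnna3 (60.6%) then lay above Immp2l (59.9%). The trend of Macrod2 moved to -10.2 and -13.0 in the controls and that of Ctnna3 to -12.9 and -12.9. Wwox was then diverging in the naive control too, at 10.3. The diverging members numbered 1, 1 and 1 in naive ESCs, beside 3.48%, 2.17% and 3.91% of long genes, and 0, 1 and 0 in EpiLCs, beside 2.17%, 0.870% and 3.04%, and each time the gene was Wwox.

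Where an origin fires often, fork share climbs sharply over a short distance. For each member the 100 kb step with the highest rise, at least 100 kb from either gene end, was located in the sum of the EpiLC tracks and then read in the naive tracks, which had no part in placing it. At these positions 4 of the 7 had a step of at least 10 points in the naive sum, beside 30.6% of 229 long genes with such a position. Without the T minus A part, an alternative added after the data were seen, these were still 4, beside 21.0%. Each member is longer than the median long gene (730 kb) and so offers more positions to choose from. The part of gene length in these counts was not tested. Ctnna3 had the highest naive step of the 7. Its rise was placed at position 64760000 of chromosome 10, 84.5% of the way through the gene, and measured 40.7 points in the naive sum (31.6 without the T minus A part). In single naive tracks it was 43.3 (33.2 to 52.1) in the control, 29.2 (17.7 to 39.6) in dKO and 49.3 (38.4 to 58.4) in dCD. Fork share went from 36.4% before to 79.7% after the position in the naive control. The EpiLC tracks, in which it was chosen, had 24.5 in the control, 28.0 in dKO and 20.6 in dCD. The nearest start of a protein-coding gene, that of Lrrtm3, was 670 kb away, and that of a gene of any type, the lincRNA Gm28881, 360 kb.

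In Lrp1b the rise lay at position 40915000 of chromosome 2, 84.5% through the gene and 1689 kb from the nearest protein-coding start, Ppp6c, and 43.4 kb from the nearest start of a gene of any type, that of the pseudogene Gm13462. It measured 19.3 points in the naive sum (14.6 without the T minus A part), and 23.7 (12.4 to 34.1) in the control, 21.7 (9.98 to 32.5) in dKO and 9.62 (-3.07 to 22.0) in dCD. The interval of naive dCD included 0. In Immp2l the rise lay at position 41724000 of chromosome 12, 75.1% through the gene and 238 kb from the start of Lrrn3, with the start of a pseudogene, Gm47369, 39.6 kb away. The naive sum had 20.6 points (14.9 without the T minus A part), and single naive tracks 23.9 in the control, 20.6 in dKO and 15.9 in dCD. Every interval lay above 0. Fhit, at 12.9 points, was the fourth past 10, with its position 9.43% into the gene. Naive values at the positions of Macrod2 (8.12), Wwox (7.84) and Csmd1 (-5.82) fell short. The steepest descents found in the same way were at or below -10 in the naive sum in 4 of the 7, beside 54.6% of long genes. After removal of the T minus A part this held for 1 of the 7, beside 24.5%. The descents were -16.0 in Lrp1b, -15.8 in Immp2l, -14.4 in Fhit and -10.7 in Ctnna3, and then -6.29, -11.8, -7.94 and -7.16.

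**Figure D3:**
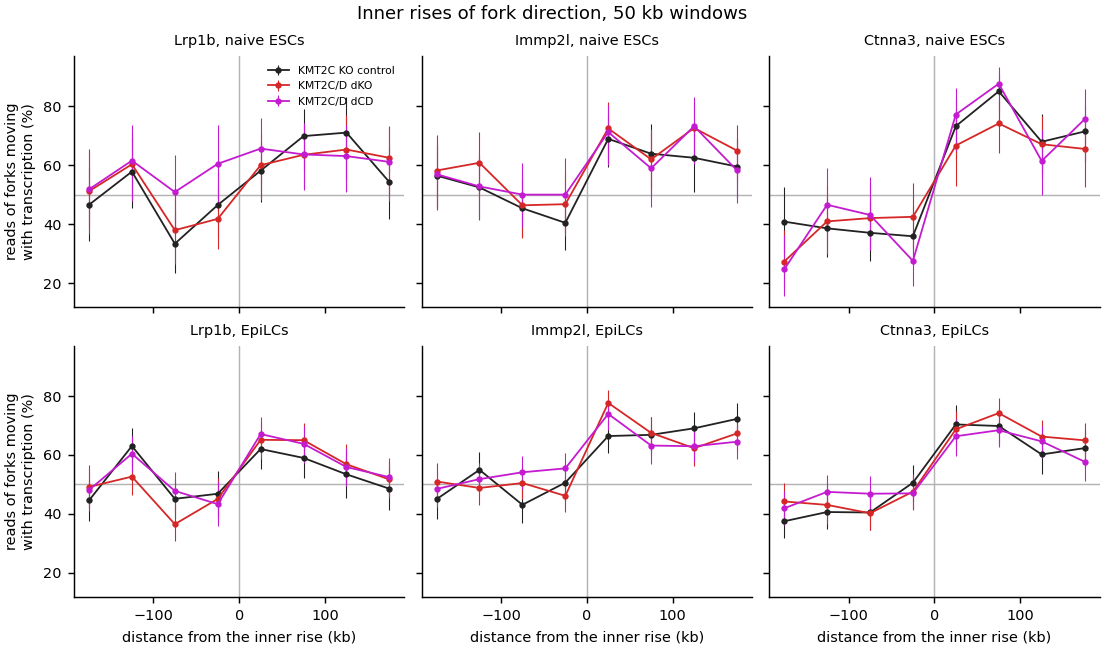
Fork share in 50 kb windows within 200 kb of the rise inside Lrp1b, Immp2l and Ctnna3, in kb from the rise, for naive ESCs (top) and EpiLCs (bottom) and 3 genotypes by colour, with 95% counting intervals. The positions were chosen in the EpiLC tracks. Ctnna3 goes from 50.6% or less in the window before the rise to 66.4% or more in the window after it in all 6 tracks.

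The genotype comparisons share the control track of each state, so values of both mutants stand side by side and are not independent. Fork share over the gene body differed from the control by at least 5 points in 0 members in naive dKO (beside 10.4% of long genes), 1 in naive dCD (28.7%), 0 in EpiLC dKO (2.17%) and 1 in EpiLC dCD (7.83%). The gene was Ctnna3 both times. Its fork share was 57.9% in the control, 61.6% in dKO and 64.1% in dCD in naive ESCs and 56.2% in the control, 59.5% in dKO and 61.9% in dCD in EpiLCs. dCD minus control was 6.20 (95% interval 3.47 to 8.92) points in naive ESCs and 5.69 (95% interval 4.16 to 7.23) in EpiLCs. For dKO the difference was 3.66 (0.960 to 6.35) and 3.31 (1.72 to 4.91) points. In EpiLCs each of the 10 segments was higher in dKO than in the control, and each in dCD. In naive ESCs 7 and 8 of 10 were. The excess was 11.1 (2.74 to 19.3) points in segment 4 of naive dCD and 5.03 (-0.0826 to 10.1) in segment 6 of EpiLC dKO. In segment 9 all 6 tracks lay within 57.3 to 58.3%. The 500 kb before the gene had 58.5% in the control, 56.6% in dKO and 59.0% in dCD in naive ESCs and 56.8% in the control, 57.6% in dKO and 57.5% in dCD in EpiLCs, a smaller spread than over the gene. The 500 kb after it went the other way, with 62.4% in the control, 61.4% in dKO and 59.6% in dCD in naive ESCs and 58.6% in the control, 55.5% in dKO and 55.9% in dCD in EpiLCs, lower in both mutants. The amplitude of the libraries had the same order as the fork shares over the gene. Divided by the amplitude relative to that of the control, dCD minus control was 2.88 points in naive ESCs and 3.25 in EpiLCs, and dKO minus control 3.09 and 2.51. The differences of dCD then no longer reached 5 points.

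Over all 7 genes the mean difference in fork share was 0.0296 points (-1.09 to 1.15) in naive dKO and 0.626 (-0.0359 to 1.29) in EpiLC dKO. Single genes went both ways in naive dKO, with -3.75 (-7.11 to -0.388) in Wwox against 3.66 (0.960 to 6.35) in Ctnna3 and 3.07 (0.0370 to 6.10) in Csmd1. In EpiLC dKO Wwox had -2.03 (-4.04 to -0.0127), and -5.57 after thinning, which passes 5. In dCD it was 2.22 (1.08 to 3.35) in naive ESCs and 1.48 (0.830 to 2.13) in EpiLCs, with 6 of 7 genes higher each time. Divided by the relative amplitude these means were 0.316 and 0.258, with 2 and 3 of 7 genes higher. The median difference of the 7 in dCD was 1.92 and 1.08, against -0.233 and 0.225 over all long genes.

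**Figure D4:**
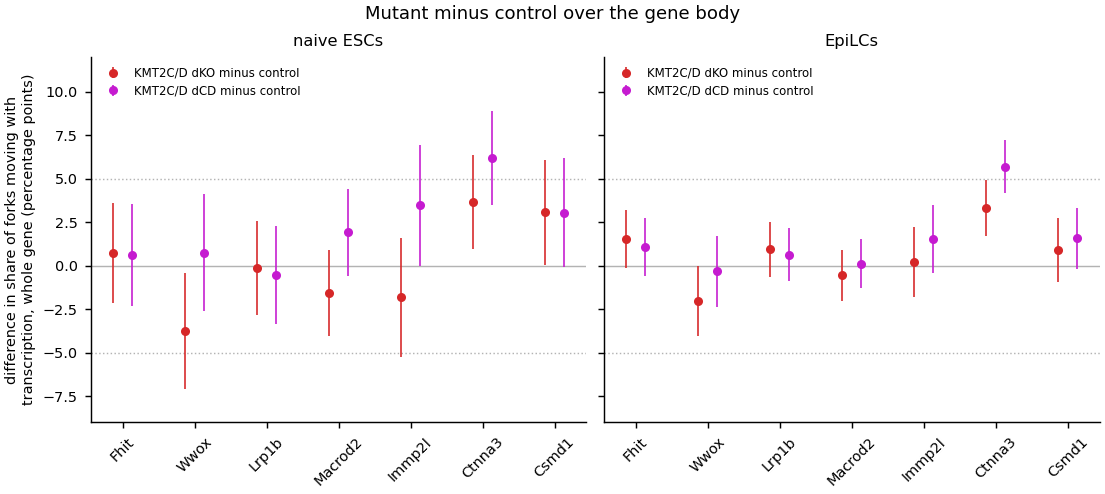
Difference in fork share over the whole gene, mutant minus control in percentage points, for dKO and dCD in naive ESCs (left) and EpiLCs (right), with 95% counting intervals. Dotted lines mark 5 points either way. Ctnna3 lies above 0 in all 4 comparisons and above 5 points in both dCD comparisons.

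The trend differed by at least 10 points from the control in 1 member in naive dKO (Immp2l, beside 17.4% of long genes), 0 in naive dCD (31.7%), 1 in EpiLC dKO (Wwox, 6.09%) and 0 in EpiLC dCD (15.2%). For Wwox, dKO minus control was 13.1 (95% interval 7.87 to 18.3) points in EpiLCs and 8.84 (95% interval 0.234 to 17.4) in naive ESCs. The 5′ part of Wwox was lower and its 3′ part higher in the EpiLC mutant, with differences of -11.2 (-17.4 to -4.85) points in segment 2 and 10.1 (3.90 to 16.2) in segment 8. In naive dKO segment 1 had the widest gap, -17.1 (-27.4 to -6.12) points. The EpiLC difference was 8.14 as last 5 minus first 5 segments. dCD minus control was smaller, at -4.98 (-10.2 to 0.222) in EpiLCs and 2.80 (-5.89 to 11.5) in naive ESCs. The trend of Immp2l was higher in naive dKO by 11.3 (95% interval 2.75 to 19.8) points, with segment 2 at 63.8% against 77.8% in the control. This was 9.71 without the T minus A part and 8.91 as last 5 minus first 5 segments, both under 10. The same comparison in EpiLCs gave -2.74 (-7.73 to 2.25). Ctnna3 was more steeply converging in naive dKO and dCD, with differences of -9.64 (-16.4 to -2.90) and -7.65 (-14.5 to -0.809). After division by the relative amplitude these were -8.44 and -2.38. Macrod2 was steeper in naive dCD, with -8.79 (-15.1 to -2.46), where segment 1 had 79.1% against 66.9%, but -3.01 after division by the relative amplitude. Fhit was less steep in EpiLC dCD by 6.99 (2.76 to 11.2) points. This was 4.30 as last 5 minus first 5 segments and 0.319 after thinning to the smallest library. Of the 70 segments, 6 differed by at least 10 points from the control in naive dKO, 6 in naive dCD, 2 in EpiLC dKO and 0 in EpiLC dCD, beside 18.6%, 27.9%, 4.44% and 7.31% of the segments of all long genes. As shares of 70 these were 8.57%, 8.57%, 2.86% and 0%, all below the background. The median long gene (730 kb) is shorter than any member, so its segments are shorter too, and the part of segment size in this gap was not tested.

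Between states, Immp2l differed most in the control. EpiLC minus naive control was 15.3 (95% interval 8.48 to 22.1) points in trend, and in 1 of the 7 members the difference reached 10 (beside 20.0% of long genes). Segment 2 had 77.8% in naive ESCs and 62.2% in EpiLCs, segment 5 60.4% and 46.5%, and segment 10 60.5% and 70.5%. Over the gene its fork share differed by -4.40 (-7.11 to -1.64) points, and 0 members reached 5 (beside 12.6%). That share difference was -2.19 without the T minus A part and -2.51 after thinning. dKO had a smaller difference in Immp2l, with 1.28 (-5.90 to 8.44) points in trend, and 0 members reached 10 in that comparison (beside 22.2%) or 5 in share (beside 11.3%). Ctnna3 came nearest in trend, with 9.99 (4.43 to 15.4), and passed 10 after division by the relative amplitude (10.01) and after thinning (10.5). The difference between these state comparisons was not tested. In dCD the trend of Immp2l differed by 11.9 (4.76 to 18.9), that of Fhit by 11.4 (5.00 to 17.7), that of Csmd1 by 10.3 (3.76 to 16.7) and that of Wwox by -13.7 (-20.8 to -6.51) points. These were 4 of 7 members past 10, beside 28.7% of long genes. The relative amplitude is taken to the control of the same state. The gap in amplitude between states (12.6 in the naive and 9.73 in the EpiLC control) thus stays in all these state differences. Its part in them was not tested. Divided by the relative amplitude the trend difference of dCD was 8.94 in Immp2l, 8.57 in Fhit and 7.56 in Csmd1, under 10 in each, and -10.6 in Wwox. Without the T minus A part that of Csmd1 was 9.13, and as last 5 minus first 5 segments that of Fhit was under 10 too. Fork share over Immp2l differed by -6.32 (-9.17 to -3.39) points in dCD, the 1 member past 5 (beside 30.9%). It was -4.58 without the T minus A part and -4.54 after division by the relative amplitude, both short of 5. In Wwox the state difference of dCD was widest in segment 6, at 61.0% in naive ESCs and 38.6% in EpiLCs. The number of the 70 segments that differed by at least 10 points was 6 in the control, 1 in dKO and 9 in dCD, beside 17.4%, 15.9% and 25.3%. Over the 7 genes the mean EpiLC minus naive difference in fork share was -1.40 (-2.31 to -0.493) points in the control. In dKO and dCD it was -0.808 (-1.73 to 0.119) and -2.14 (-3.08 to -1.20). In these comparisons 1, 2 and 2 of 7 genes were higher in EpiLCs. The medians of the 7 were -1.74, -0.605 and -2.24, against -1.29, -0.316 and -0.310 over all long genes. Csmd1 had more fork share over the gene in EpiLCs, with EpiLC minus naive differences in the control, dKO and dCD of 2.64 (0.170 to 5.11), 0.465 (-2.07 to 3.01) and 1.18 (-1.42 to 3.78) points, the interval lying above 0 in the control alone.

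Read density over whole genes was compared with that of the flanks. Density is reads per kb of the gene over reads per kb of both 500 kb flanks. It ranged from 0.853 (Macrod2, EpiLC control) to 1.12 (Wwox, naive dCD) over the 7 genes and 6 tracks. Macrod2 had 0.948 in the control, 0.943 in dKO and 0.859 in dCD in naive ESCs and 0.853 in the control, 0.906 in dKO and 0.960 in dCD in EpiLCs, all below 1. Ctnna3 lay below 1 with its interval in all 6 tracks, from 0.903 to 0.925. Fhit had 0.903 in the control, 0.935 in dKO and 0.984 in dCD in naive ESCs and 0.924 in the control, 0.896 in dKO and 0.987 in dCD in EpiLCs, with an interval below 1 in 4 of 6 tracks, as in Macrod2. Wwox lay above 1 with its interval in 4 of 6 tracks and reached 1.12. These values depend on the flanks. On the log2 scale, where 0 is equal density, Ctnna3 stayed between -0.180 and -0.0646 with flanks of 250 kb or 1 Mb or without bins of under 10 reads. With flanks of 250 kb Macrod2 rose above 0 in the naive control (0.0190) and EpiLC dCD (0.00624), as Fhit did in dCD of both states (0.0461 and 0.0642). Against the whole genome, Csmd1 was covered at 0.716 to 0.852 and Lrp1b at 0.741 to 0.818 of the mean density, and Wwox at 1.04 to 1.26. Coverage was not even along each gene. Relative to the mean of the gene it was 1.18 to 1.33 in segment 1 of Csmd1 and 0.725 to 0.837 in segment 7 over the 6 tracks. Between tracks the density of 0 members differed by 1.2-fold, beside 0%, 1.74%, 0% and 0.870% of long genes for naive dKO, naive dCD, EpiLC dKO and EpiLC dCD against their controls, and 2.17%, 0% and 3.04% for EpiLC against naive in the control, dKO and dCD. The widest fold was 1.12 (1.07 to 1.18), for Macrod2 in EpiLC dCD against control. In windows of 100 kb, 107 over the 7 genes in each of 7 comparisons, the fold lay between 0.676 and 1.35, and 0 windows passed 1.5-fold. Changes in few of the cells or over much shorter stretches were not detectable at this depth.

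**Figure D5:**
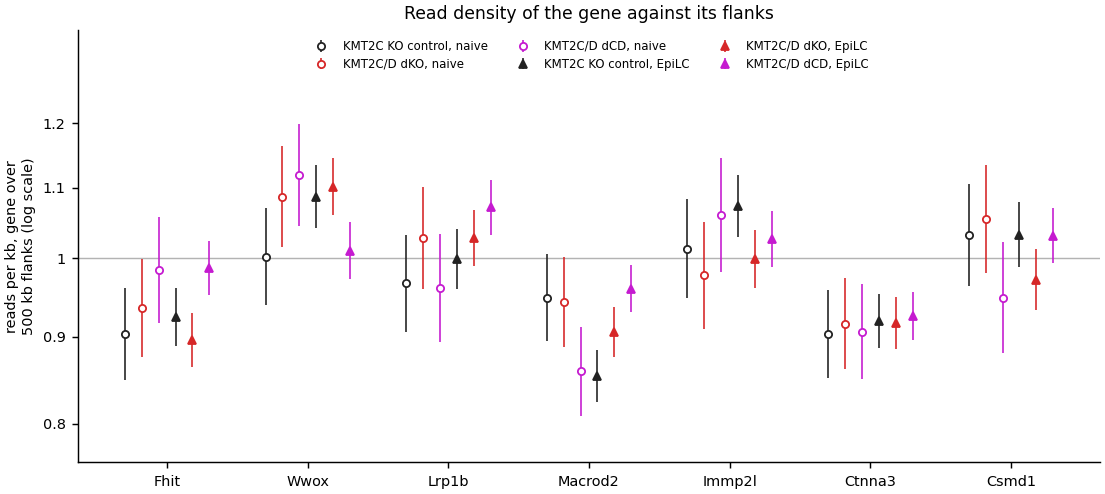
Reads per kb of each gene over reads per kb of its 500 kb flanks, on a log axis, in the 6 tracks with 95% counting intervals. Ctnna3 lies below 1 in all tracks and no gene differs by 1.2-fold between tracks.

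Long runs of alternating A and T, which can fold and hinder forks, are a known feature of some human fragile sites, so the longest runs in Macrod2 and Ctnna3, which both converged in every track, are shown as examples from the reference genome (GRCm38, plus strand), with the run in capitals and 25 bases on either side. The stretches are chr2:141746459-141746562 in segment 7 of Macrod2 and chr10:64347077-64347186 in segment 6 of Ctnna3.
Macrod2: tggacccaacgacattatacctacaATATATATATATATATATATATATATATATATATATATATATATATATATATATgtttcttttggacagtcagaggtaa
Ctnna3: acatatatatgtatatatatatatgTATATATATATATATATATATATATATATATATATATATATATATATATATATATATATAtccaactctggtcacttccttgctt
Counted in whole pairs of A and T, the run of Macrod2 measured 54 bases and that of Ctnna3 60, beside a median longest run of 56 over long genes. In Ctnna3 the base after the capitals is a T that goes on alternating and is not counted. The longest runs of Lrp1b (64), which never converged, and of Csmd1 (60) were as long or longer, and those of Fhit, Wwox (50 each) and Immp2l (46) shorter. The bin with the run held 15 reads in Macrod2 over the 6 tracks and 10 in Ctnna3, against means of 19.4 and 20.5 per bin in the 11 kb around them. The bins of Fhit (7 against 17.6) and Csmd1 (6 against 14.9) held fewer reads than their surroundings too, and those of Lrp1b (35 against 19.8), Immp2l (31 against 23.9) and Wwox (24 against 20.9) more, so there was no common direction. Whether reads from such repeats were lost in mapping was not tested. Runs of at least 40 bases numbered 14.6 per Mb in Lrp1b, 8.26 in Ctnna3, 7.51 in Immp2l, 7.01 in Macrod2, 6.69 in Csmd1, 6.57 in Wwox and 4.34 in Fhit, beside a median of 7.04 over long genes. Lrp1b thus held the most and Fhit the fewest.

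For each member the long gene with the most similar profile was sought, by the root mean square difference in fork share over 10 segments and 6 tracks (60 values, 223 genes outside the 7). In percentage points these were Gabrg3 for Fhit (7.46), Ntm for Wwox (6.78), Pcdh9 for Lrp1b (5.82), Magi1 for Macrod2 (5.99), Foxp1 for Immp2l (6.83), Zmat4 for Ctnna3 (8.23) and Nrg3 for Csmd1 (5.85). The median over all 223 genes was 10.2 (Csmd1) to 15.0 (Wwox). Ntm, which encodes the adhesion molecule neurotrimin, had trends of 12.6 and 2.32 in the naive and EpiLC control, beside 8.13 and 2.21 for Wwox. The nearest gene to Ctnna3 was the least similar of these. A second list of 13 long genes that also host fragile sites had 8, 9 and 10 converging genes in the naive control, dKO and dCD and 10, 9 and 11 in EpiLCs, beside 60.0%, 65.7%, 73.0%, 56.1%, 60.4% and 61.3% of all long genes, and 0 diverging ones in each track. In the EpiLC control the lowest trend of that list was -21.2 in Dlg2, a synaptic scaffold gene, and the highest -4.74 in Ccser1. Dlg2 had -31.1 in the control, -34.4 in dKO and -44.3 in dCD in naive ESCs, below each of the 7 genes, and -27.5 and -30.3 in EpiLC dKO and dCD.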

How the data were processed

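OK-seq reads of Okazaki fragments were measured in 12 samples, 2 per condition. The authors mapped them to mm10. The submitters' processing notes name Trim Galore, FastQC, Bowtie2 and Picard, with versions not given in the sources used here, and whether duplicate reads were removed is not stated. The deposited signal tracks give Watson and Crick values per bin of 1 kb, summed over both replicates by the authors, so depth per sample is unknown. Values were whole multiples of 0.001 and were multiplied by 1000 to give reads.

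The position in the tracks was read as the end of a bin, which left 0 reads in 74135 kb of reference sequence without bases (3045 if read as the start). 83 bins with over 10 times the median count were left out, as were bins with many unknown bases (N). In the body of Immp2l 925 of 932 bins were used. Genes were those of GENCODE M21. The members, the second list and the thresholds were chosen with earlier results of these data known. All 7 members are named, with the 1 nearest long gene of each and the lowest and highest of the second list. Wilson and Newcombe 95% intervals cover counting error only. Alternatives were the last 5 minus the first 5 segments, the T minus A part taken off, no bin left out for its count, division by the amplitude, thinning to the smallest library, flanks of 250 kb and 1 Mb, and bins with under 10 reads left out. Start steps at 25 kb, and inner steps and counts of members above 50% without the T minus A part, were added after the data were seen. Scripts used Python 3.11.15, numpy 2.4.6, scipy 1.17.1, pandas 2.3.3 and matplotlib 3.10.9 and were tested on simulated strands.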

Additional observations from a re-analysis of the deposited data

How the results depend on the processing

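Of 182 recomputed summary values 151 moved by no more than their counting error, or for counts by less than 1.5 times, and 31 moved further. The sign changed in 6, all of them values whose interval included 0. Of values for single genes, 319 stayed within that range, 59 did not and 28 changed sign. Both tallies hold values that could not move, since division by the relative amplitude leaves every control track as it was. Leaving no bin out for its count also moved 0 of 42 single-gene trends and 0 of 42 single-gene densities. For density, flanks of 250 kb moved 17 of 42 such values, flanks of 1 Mb 11 and leaving out bins of under 10 reads 6. The mean trend of the 7 genes was -8.74, -8.49 and -12.0 in the naive control, dKO and dCD and -7.64, -5.96 and -8.89 in EpiLCs. As last 5 minus first 5 segments it was -6.47 in the naive control, -8.14 in naive dCD and -5.06, -4.30 and -5.59 in the EpiLC tracks, and 3 genes were converging in the naive control, 1 in the EpiLC control and 1 in EpiLC dCD. Without the T minus A part it was -6.49, -6.28 and -9.76 in naive ESCs and -6.19, -4.10 and -7.12 in EpiLCs. Divided by the relative amplitude it was -9.17 in naive and -7.06 in EpiLC dCD. The mean share differences of dCD were then 0.316 (naive) and 0.258 (EpiLC). The mean trend difference of EpiLC dCD was then 0.582 in place of -1.25 (-2.89 to 0.393). The mean share difference of EpiLC dKO was -0.195 after thinning in place of 0.626. That of the EpiLC minus the naive control was -0.255 without the T minus A part in place of -1.40 (-2.31 to -0.493). Without bins of under 10 reads the mean log2 density ratio was -0.063, -0.072 and -0.031 in the EpiLC control, dKO and dCD, and with flanks of 1 Mb -0.065 and -0.024 in EpiLC dKO and dCD. The mean share difference of naive dKO, 0.0296, was -0.260 after division by the relative amplitude. In alternatives chosen after the data were seen, start steps past 10 points at 25 kb numbered 2, 2 and 1 (4, 6 and 3 at 100 kb) in the naive control, naive dCD and EpiLC dCD, and without the T minus A part 1 inner descent in place of 4 passed 10 and 4 members in place of 7 lay above 50% in the EpiLC control. Where no construction shows it, the cause was not tested. No paired analysis was possible because the tracks sum the replicates, and for the same reason no replicate could be left out. Naive libraries were the shallowest, so small differences in them are the least certain.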
